A study of Homo sapiens with 18 samples.

Results

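Olfactory receptor families 51 and 52 were described in tumours of HCT116, a human colorectal carcinoma cell line, grown as xenografts in mice. The genes were taken by name, as every row of the deposited gene tables whose Entrez ID maps to a symbol starting OR51 or OR52 and that is no pseudogene. This gave 46 of the 25343 genes in the tables, 22 of family 51 and 24 of family 52, all on chromosome 11. The families were chosen by the levels (TPM and counts) that some of their genes have in these same tumours, so presence and level are given as a description, without a test.

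The study compared 18 tumour libraries in 3 groups of 6, all from HCT116 cells in which PTDSS2, a phosphatidylserine synthase gene, was knocked out. Mice received vehicle (0.5% methylcellulose), DS55980254 at 10 mg/kg or DS55980254 at 30 mg/kg by mouth, and tumours were taken 24 h later. The knockout is shared by all 3 groups and no tumour with PTDSS2 intact was analysed here, so PTDSS2 counts could not be set against an unedited level; PTDSS2 had 4.97 to 12.03 CPM in vehicle, 7.11 to 13.9 CPM at 10 mg/kg and 5.32 to 13.4 CPM at 30 mg/kg. CPM is the count scaled by the TMM-adjusted library size. The labels do not give the number of knockout clones, and a host mouse supplies stroma and blood vessels. Whether each library came from its own animal is not given, so p-values measure the spread between these libraries only.

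Olfactory receptors are odorant-binding G protein-coupled receptors of the nasal sensory neurons, where each mature neuron typically expresses a single receptor gene. Families 51 and 52 belong to the class I receptors, which resemble those of fish, and their genes lie in clusters on the short arm of chromosome 11 on both sides of the beta-globin genes. A typical receptor has a coding region in a single exon. Receptor transcripts are also known from tissues outside the nose, and OR51B4 in particular has been described in HCT116 cells as the receptor for the odorant Troenan.

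Total counts ran from 3435423 to 8538792 in 17 libraries and reached only 433981 in replicate 2 of the 10 mg/kg group, which is shown apart for levels and classes and enters the fit over all 18 libraries. A gene was called present in a library at 3 or more rounded expected counts, the limit that a count of 0 allows. That limit stood at 0.359 to 0.868 CPM in the 17 libraries and at 6.42 CPM in replicate 2. It covers counting error only. Levels between genes are compared as TPM, transcript abundances scaled for length and library size. The tumours carried the epithelial keratins of the line, with median levels of 3073 TPM for KRT8 and 2268 TPM for KRT19, and 7 of 8 colon epithelial marker genes were present in each of the 17 libraries. VIL1, a brush border gene, was the exception at a median of 0.18 TPM. Of the 7 present, KRT20 was near the limit, with a median of 1.71 TPM and a minimum of 3 counts. CDX2 had a median of 8.46 TPM. In the comparisons of groups, 0 of the 6 tested markers passed the threshold in any.

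Of the 46 receptor genes, 10 (21.7%) were present in each of the 17 tumours, 8 (17.4%) were silent, meaning under 3 counts in each of the 17, and 28 (60.9%) lay between. The same 3 classes held 5 (1.53%), 86 (26.4%) and 235 (72.1%) of the 326 receptor genes of other families. The 5 were OR13H1 at a median of 15.4 TPM, OR10A5 at 7.36 TPM, OR2D3 at 7.09 TPM, OR2A4 at 6.01 TPM and OR10A2 at 5.32 TPM. The 10 present genes were 8 of the 22 in family 51 and 2 of the 24 in family 52.

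Along the chromosome, 9 of the 10 present genes were direct neighbours. In their order these were OR51B4, OR51B2, OR51B5, OR51B6, OR51M1, OR51Q1, OR51I1, OR51I2 and OR52D1, with no other protein-coding gene between them in RefSeq. The run was recognised from the levels, so its limits are a description. On the OR51B4 side it is bounded by 5 beta-like globin genes, after which OR51V1 follows. On the OR52D1 side the next receptor genes are OR52H1 and OR52B6. The 10th present gene was OR52B6. The run mixes orientations, with 5 genes on the plus strand (OR51B6, OR51M1, OR51Q1, OR51I2 and OR52D1) and 4 on the minus strand (OR51B4, OR51B2, OR51B5 and OR51I1). It held 85.3% of all counts of the 372 receptor genes over the 17 libraries.

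**Figure D1:**
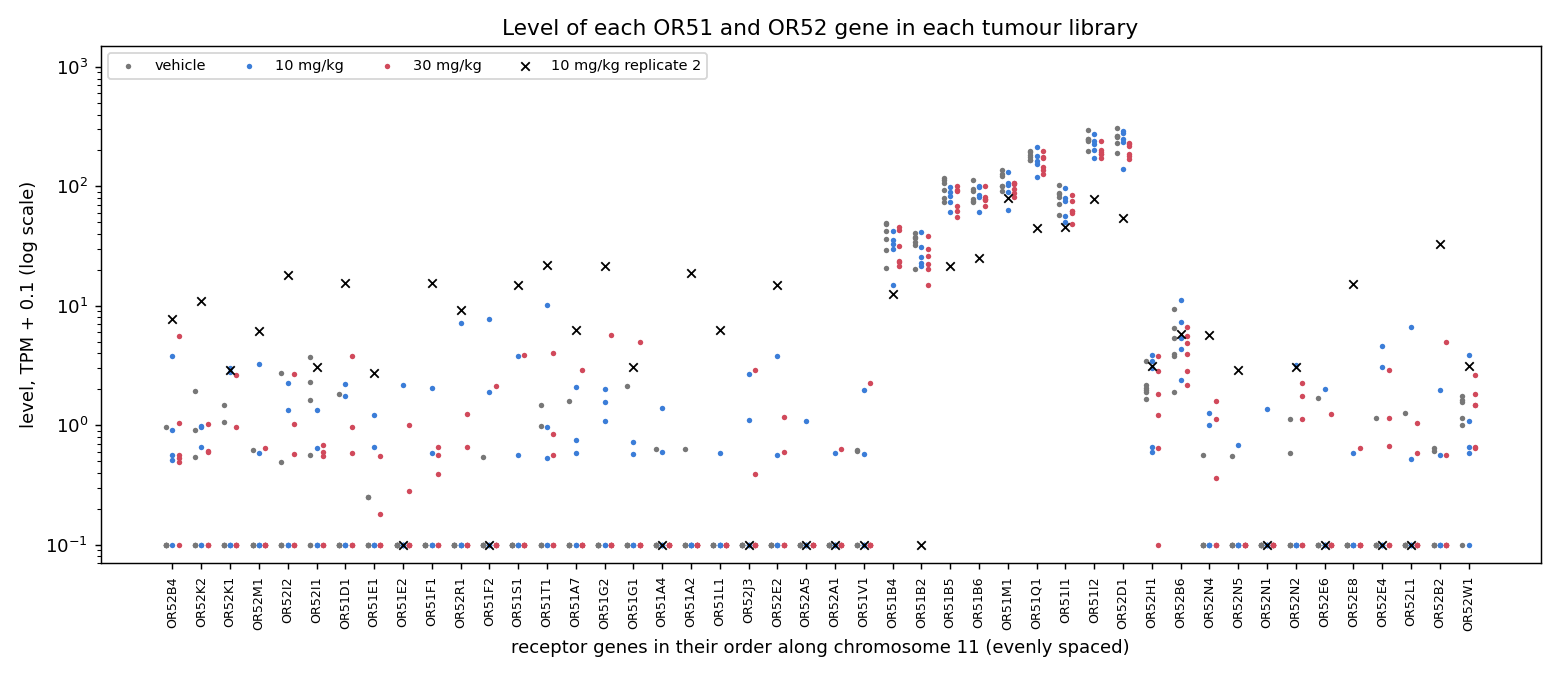
Level of each of the 46 OR51 and OR52 genes in each library, as TPM + 0.1 on a log scale (y axis), in gene order along chromosome 11 (x axis, evenly spaced). Dots are libraries of the vehicle, 10 mg/kg and 30 mg/kg groups and crosses are replicate 2 of 10 mg/kg; the 9 genes from OR51B4 to OR52D1 lie between 14.9 and 309 TPM in the 17 libraries, and no other gene exceeds 11.1 TPM there.

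RefSeq start windows, 250 bases before to 50 after the annotated start, were held for 32 of the 46 genes. There was no entry for OR51B4, OR51B2, OR51B5, OR51B6, OR51M1, OR51Q1, OR51I1, OR51I2 or OR52D1. The windows of 2 genes outside the run are printed because they flank it on the chromosome, OR51V1 beyond the globins (chr11:5200633-5200932, minus strand, GRCh38.p14) and OR52B6 on the OR52D1 side (chr11:5580627-5580926, plus strand, GRCh38.p14). Capitals mark the first 3 bases at the annotated start, which are ATG in both, so that in these models no untranslated leader is annotated.
OR51V1: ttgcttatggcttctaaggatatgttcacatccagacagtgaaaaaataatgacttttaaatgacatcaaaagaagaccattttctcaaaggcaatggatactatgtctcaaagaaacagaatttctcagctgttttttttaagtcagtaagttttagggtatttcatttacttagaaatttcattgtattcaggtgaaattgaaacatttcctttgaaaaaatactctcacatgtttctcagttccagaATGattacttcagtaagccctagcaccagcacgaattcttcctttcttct
OR52B6: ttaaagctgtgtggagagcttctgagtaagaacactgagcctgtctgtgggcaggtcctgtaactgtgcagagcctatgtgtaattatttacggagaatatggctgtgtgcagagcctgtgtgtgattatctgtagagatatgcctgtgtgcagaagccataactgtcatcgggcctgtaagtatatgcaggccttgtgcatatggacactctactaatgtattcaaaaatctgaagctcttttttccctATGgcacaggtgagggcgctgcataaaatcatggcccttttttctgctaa
Such a start directly at ATG was found in 15 of the 34 windows of the 32 genes. The letters TATAAA, on either strand, were in 15 of these 34 windows and in 11.5% of all 35116 windows of the same length. The letters CCAAT were in 13 of 34 and 34.6% of all windows. The letters AGATAA were in 11 of 34 and 10.3% of all windows. The OR51V1 window held none of the 3 motifs and the OR52B6 window held AGATAA only. These matches are a description of the letters, not of bound sites.

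The highest levels of the run were at its OR52D1 end. OR52D1, a class I receptor studied with aliphatic odorants, had a lowest, median and highest level of 140, 231 and 309 TPM over the 17 libraries. OR51I2 had 172, 225 and 299 TPM. These genes were the top 2 of the run in 17 of 17 libraries, and 97.9% of all genes in the tables had a lower median than either. Their mean levels of 231 ± 46.1 TPM for OR52D1 and 222 ± 36.7 TPM for OR51I2 (SD, n = 17) differed by less than the spread, and OR52D1 was the higher in 10 of 17 libraries.

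OR51Q1 came next with 121, 174 and 215 TPM and was below OR51I2 in 17 of 17 libraries. A middle group followed. OR51M1 had 63.1, 102 and 136 TPM as lowest, median and highest level. OR51B5, a receptor described in keratinocytes, had 54.9, 90.3 and 118 TPM. OR51B6 had 60.7, 81.0 and 114 TPM, and OR51I1 had 48.1, 75.1 and 103 TPM. Neighbours in this order, OR51M1 and OR51B5, OR51B5 and OR51B6, and OR51B6 and OR51I1, differed in mean by less than the larger of their SDs.

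The lowest levels were at the globin end. OR51B4, the Troenan receptor, had 14.96, 32.8 and 49.5 TPM, and OR51B2 had 14.9, 29.9 and 41.4 TPM. They were the bottom 2 of the run in 17 of 17 libraries and differed from each other by less than the spread. Mean level and place along the run had a Spearman rho of 0.8 over the 9 genes, given as a description of genes that share libraries. OR51I1, between OR51Q1 and OR51I2 in the run, departed from this order with a mean of 72.7 TPM. Means ran from 29.2 to 86.1 TPM for the 4 genes on the minus strand. For the 5 on the plus strand they ran from 84.5 to 231 TPM. Whether level goes with place or with strand was not tested. OR52B6, outside the run, had 1.79, 4.79 and 11.1 TPM and stood below OR51B2 in 17 of 17 libraries. A share of 51.9% of all genes in the tables had a lower median than OR52B6.

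The share of the run's summed TPM held by each gene differed between groups by less than the larger SD for the genes given here. OR51I2 held 21.8 ± 1.53% in vehicle (SD, n = 6), 21.9 ± 1.40% at 10 mg/kg with replicate 2 left out (n = 5) and 21.1 ± 1.57% at 30 mg/kg (n = 6). OR52D1 held 22.3 ± 1.44%, 23.1 ± 2.01% and 21.5 ± 1.30% in the same order. The globin-side gene OR51B4 held 3.31 ± 0.867%, 2.97 ± 0.519% and 3.38 ± 1.16%.

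Among the neighbours of the run, HBE1, the embryonic epsilon-globin gene next to OR51B4, had a lowest, median and highest level of 53.4, 87.1 and 132 TPM over the 17 libraries, within the range of the run. The other 4 beta-like globin genes had medians from 0 to 19.0 TPM. Of the 17 listed neighbours of the receptor clusters 8 were present in each of the 17 tumours. The highest medians were 80.0 TPM for TRIM21, an antibody receptor and ubiquitin ligase, and 50.9 TPM for RRM1, a ribonucleotide reductase subunit, and all 6 listed family 56 receptors had a median of 0. None of the 10 tested neighbours or the 2 tested globin genes passed the threshold (edgeR, described with the fit of the receptors) in any comparison.

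The annotation places longer transcripts over the run. In GENCODE 29 the span of HBE1 covers all 9 receptor genes and the span of OR51B5 covers 7 of the other genes, 6 in RefSeq. The longest HBE1 and OR51B5 models begin at the same base, 0 bases apart, beyond OR52D1. Libraries were made with a kit that keeps strand, but the strand setting of the counting and the transcript models were not given in the sources used here. Spans were compared, not exons. Whether reads of these overlapping genes, and of the genes on opposite strands, can be told apart was therefore not tested. A level here is that of the reads assigned to a gene. Sequence copies were not close in the run: 8 of its 9 genes had an alignment of at least 500 bases to another receptor transcript, with a highest identity of 74.6%, and 0 of the 9 exceeded 95%. Among the other genes, OR51A2 and OR51A4 (98.4% identical) and OR52I1 and OR52I2 (97.2%) could share reads, and their separate values are uncertain.

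Markers of erythroid cells, which use the globin genes, were low among the human genes of the tables. Of 8 erythroid marker genes, 0 were present in each of the 17 tumours and 7 had a median of 0. Their summed level was 0.08 to 1.96 TPM in vehicle, 0.09 to 6.91 TPM at 10 mg/kg, 0 to 10.1 TPM at 30 mg/kg and 20.9 TPM in replicate 2. Of 6 factors known at the globin locus in erythroid cells, 3 were present in each tumour. These were ZBTB7A, a repressor of fetal globin, at a median of 67.4 TPM, NFE2, an erythroid transcription factor subunit, at 6.05 TPM, and BCL11A at 1.56 TPM. The others were low, with medians of 0.31 TPM for GATA1 and 0 TPM for KLF1 and TAL1. None of the 3 tested members of this list passed the threshold in any comparison, and their median log2 fold change was 0.07 at 10 mg/kg and 0.09 at 30 mg/kg against vehicle.

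Genes that carry the odorant signal in sensory neurons were present in these tumours only in part. Of 15 genes for odorant signalling and receptor trafficking, 7 were present in each of the 17 libraries. GNB1, a widely used G protein beta subunit, had a median of 314 TPM, ARRB2, an arrestin, 26.3 TPM, and ADCY3, the adenylyl cyclase of olfactory cilia, 23.1 TPM. GNAL, the olfactory G protein alpha subunit, had 2.22 TPM, and OMP, the marker of mature olfactory neurons, 2.93 TPM. CNGA2, the subunit of the olfactory cyclic nucleotide-gated channel, and RTP1 and RTP2, which carry receptors to the cell surface, had medians of 0. Of 10 olfactory neuron markers, 2 were present in each tumour. Of 11 factors linked to receptor choice, 8 were, led by KDM1A, a histone demethylase, at 160 TPM and LDB1, a LIM-domain adaptor, at 93.4 TPM. None of the tested members of these 3 lists (7, 2 and 8 genes) passed the threshold in any comparison. The share of all tested genes that passed was 0.469% at 10 mg/kg, 0.618% at 30 mg/kg and 0% between the doses. The lists' median log2 fold changes were -0.10, -0.24 and -0.05 at 10 mg/kg against vehicle, where the median of all tested genes was -0.006. At 30 mg/kg against vehicle they were -0.02, -0.18 and -0.09, where the median of all tested genes was -0.001. The 2 tested neuron markers, ADCY3 (-0.39 and -0.33 at 10 and 30 mg/kg) and GNAL (-0.10 and -0.02), were also among the 7.

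Across vehicle, 10 and 30 mg/kg the groups overlapped for each of the 9 genes of the run. OR51I2 had a lowest, median and highest level of 198, 247 and 299 TPM in vehicle. At 10 mg/kg it had 203, 238, 172, 275 and 225 TPM in replicates 1, 3, 4, 5 and 6 and 78.3 TPM in replicate 2. At 30 mg/kg it had 172, 190 and 241 TPM. The means were 247 ± 32.1 TPM in vehicle (SD, n = 6), 222 ± 38.5 TPM at 10 mg/kg (n = 5) and 197 ± 23.8 TPM at 30 mg/kg (n = 6), and the 3 groups overlapped.

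OR52D1 had 190, 261 and 309 TPM in vehicle. At 10 mg/kg it had 235, 278, 140, 291 and 250 TPM in replicates 1, 3, 4, 5 and 6 and 54.3 TPM in replicate 2. At 30 mg/kg it had 169, 202 and 231 TPM. The means were 253.1 ± 39.7, 239 ± 59.5 and 202 ± 26.4 TPM in the same order, and replicate 4 of 10 mg/kg was the low library of its group, apart from replicate 2.

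OR51B4 had 20.8, 39.5 and 49.5 TPM in vehicle, 32.8, 35.2, 14.96, 42.7 and 29.7 TPM in the same 5 libraries of 10 mg/kg, and 21.5, 27.9 and 45.7 TPM at 30 mg/kg. Replicate 2 had 12.5 TPM, from 4 counts. The groups covered nearly the same range.

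Mean levels of the other genes of the run were lower in both dosed groups than in vehicle, with overlapping libraries. OR51Q1 averaged 181 ± 13.0 TPM in vehicle (SD, n = 6), 166 ± 34.8 TPM at 10 mg/kg (n = 5) and 159 ± 27.5 TPM at 30 mg/kg (n = 6). OR51M1 averaged 113 ± 17.2, 98.9 ± 25.4 and 96.6 ± 10.4 TPM in the same order. OR51B5 averaged 97.7 ± 18.1, 81.5 ± 14.9 and 78.3 ± 19.0 TPM. For these 3 genes the dosed means were below the vehicle mean by up to about the larger SD. For OR51I2 and OR52D1, given above, the 30 mg/kg mean was below the vehicle mean by more than the SD of either group. OR51B6 averaged 88.0 ± 15.3, 85.0 ± 15.9 and 80.6 ± 10.5 TPM. OR51I1 averaged 81.0 ± 15.7, 71.8 ± 18.9 and 65.2 ± 12.7 TPM. OR51B2 averaged 33.6 ± 7.09, 28.5 ± 8.04 and 25.3 ± 8.23 TPM, and was listed at 0 in replicate 2. OR52B6, outside the run, averaged 5.08 ± 2.60, 6.03 ± 3.35 and 4.27 ± 1.71 TPM, and the order of its groups differed from that of the run.

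**Figure D2:**
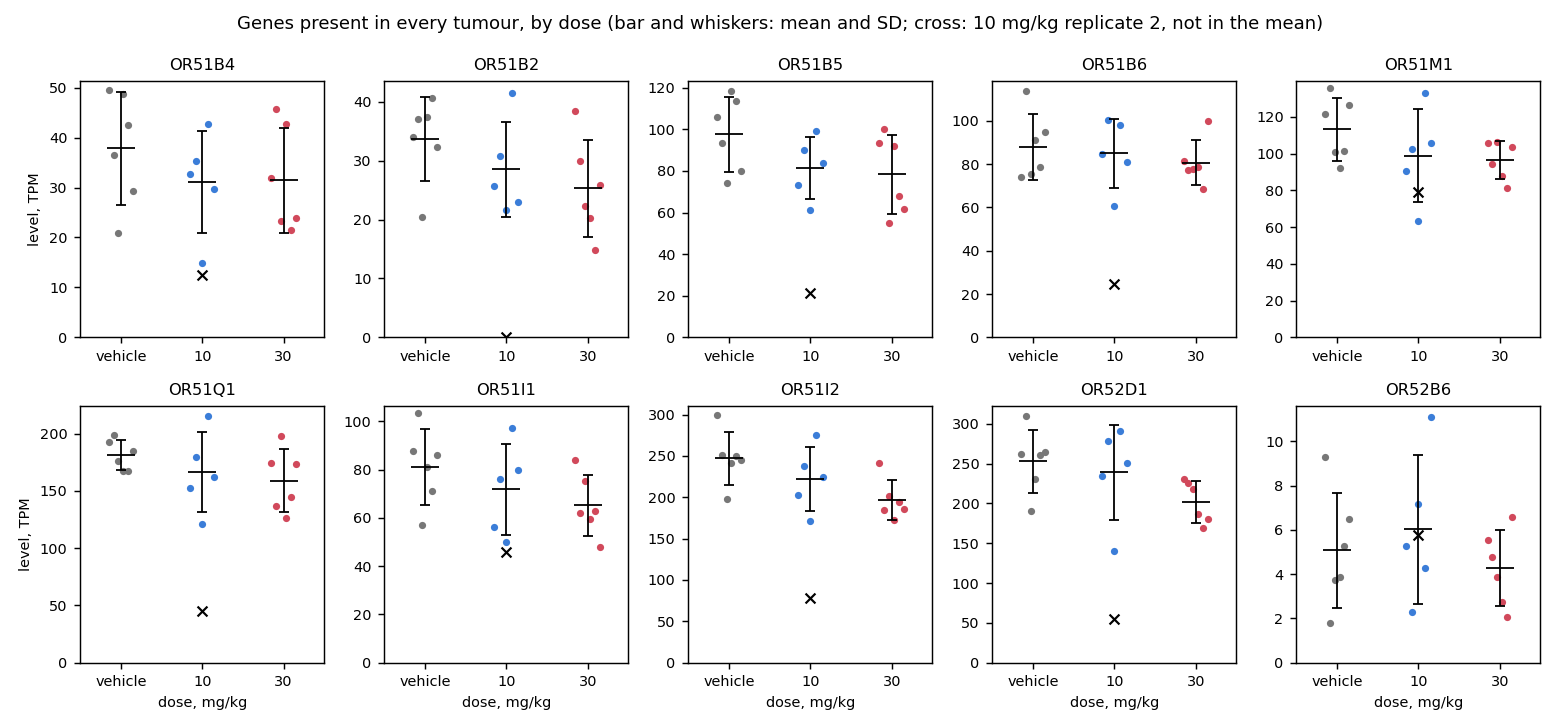
Level in TPM (y axis, from 0) of the 10 genes present in each of the 17 tumours, by group (x axis: vehicle, 10 and 30 mg/kg). Dots are libraries, the bar and whiskers are mean and SD (n = 6, 5 and 6), and the cross is replicate 2 of 10 mg/kg, not in the mean; for OR51I2 the vehicle tumours lie between 198 and 299 TPM and the 30 mg/kg tumours between 172 and 241 TPM.

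The summed TPM of the run was 914, 1135 and 1279 in vehicle as lowest, median and highest, 704, 1041 and 1292 in the 5 libraries of 10 mg/kg, and 824, 930 and 1081 at 30 mg/kg. It was 361 in replicate 2. Means were 1133 ± 126 TPM in vehicle (SD, n = 6), 1024 ± 218 TPM at 10 mg/kg (n = 5) and 935 ± 91.6 TPM at 30 mg/kg (n = 6). The 30 mg/kg mean was below the vehicle mean by more than the SD of either group, and the libraries of the groups overlapped. In bulk tumour RNA, fewer cells that express a gene and less of its RNA per cell cannot be told apart.

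In the fit over 14074 genes (edgeR's quasi-likelihood test with Benjamini-Hochberg adjustment, threshold 0.05) 10 of the 46 genes had enough counts to be tested, the same 10 that were present in every tumour. At 10 mg/kg against vehicle 0 of the 10 passed, with adjusted p-values from 0.548 to 0.865, where 0.469% of all tested genes passed. At 30 mg/kg against vehicle 0 of the 10 passed, with adjusted p-values from 0.480 to 0.987, where 0.618% passed. At 30 against 10 mg/kg 0 of the 10 and 0% of all genes passed. DESeq2 called 0 of the 9 with an adjusted p at either dose against vehicle, since it gave none for OR52B6, and 0 of the 10 between the doses. Before adjustment, 0, 1 and 0 of the 10 were under 0.05 in the 3 comparisons, against 9.5%, 7.9% and 3.52% of all tested genes.

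The single gene was OR51I2 at 30 mg/kg against vehicle, with a mean of 101 CPM at 30 mg/kg and 125 CPM in vehicle and a log2 fold change of -0.31 (SE 0.12, 95% interval -0.56 to -0.05, edgeR adjusted p = 0.480). At 10 mg/kg against vehicle its log2 fold change was -0.23 (interval -0.49 to 0.03, edgeR adjusted p = 0.584). OR52D1 had -0.19 at 10 mg/kg (interval -0.54 to 0.16) and -0.31 at 30 mg/kg (interval -0.66 to 0.04), each against vehicle. OR51B4, the Troenan receptor, had -0.31 at 10 mg/kg (interval -0.80 to 0.17) and -0.25 at 30 mg/kg (interval -0.73 to 0.22). As ratios to vehicle these intervals ran from 0.57 to 1.13 and from 0.60 to 1.16, further below vehicle than above it. OR52B6 had the widest intervals, around 0.28 at 10 mg/kg (-0.59 to 1.14) and around -0.20 at 30 mg/kg (-1.05 to 0.65).

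The 9 genes of the run had log2 fold changes below 0 at both doses. At 10 mg/kg against vehicle these ran from -0.34 to -0.12 with a median of -0.22, where the median of all tested genes was -0.01 and 51.2% of them were below 0. At 30 mg/kg against vehicle they ran from -0.38 to -0.11 with a median of -0.29, where the median of all tested genes was 0.00 and 50.2% were below 0. The comparisons share the vehicle tumours, and the 9 genes share libraries and may share reads. Groups did not separate for any of the 9 in either comparison, where 1.16% and 1.73% of all tested genes had groups with no overlap in CPM. HBE1, inside the same annotated span, had a log2 fold change of -0.10 (SE 0.19, edgeR adjusted p = 0.893) at 10 mg/kg and 0.06 at 30 mg/kg, each against vehicle. Without replicate 2 of 10 mg/kg alone, the run's median at 10 mg/kg was -0.18 with all 9 below 0; OR52D1 then had -0.091, OR51B6 -0.060 and OR51Q1 -0.14, in place of -0.19, -0.12 and -0.22. With replicates 2 and 4 of 10 mg/kg and replicate 5 of 30 mg/kg left out together, the run's median was -0.09 at 10 mg/kg, with OR51B6 and OR52D1 above 0, and -0.28 at 30 mg/kg, with all 9 below 0.

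**Figure D3:**
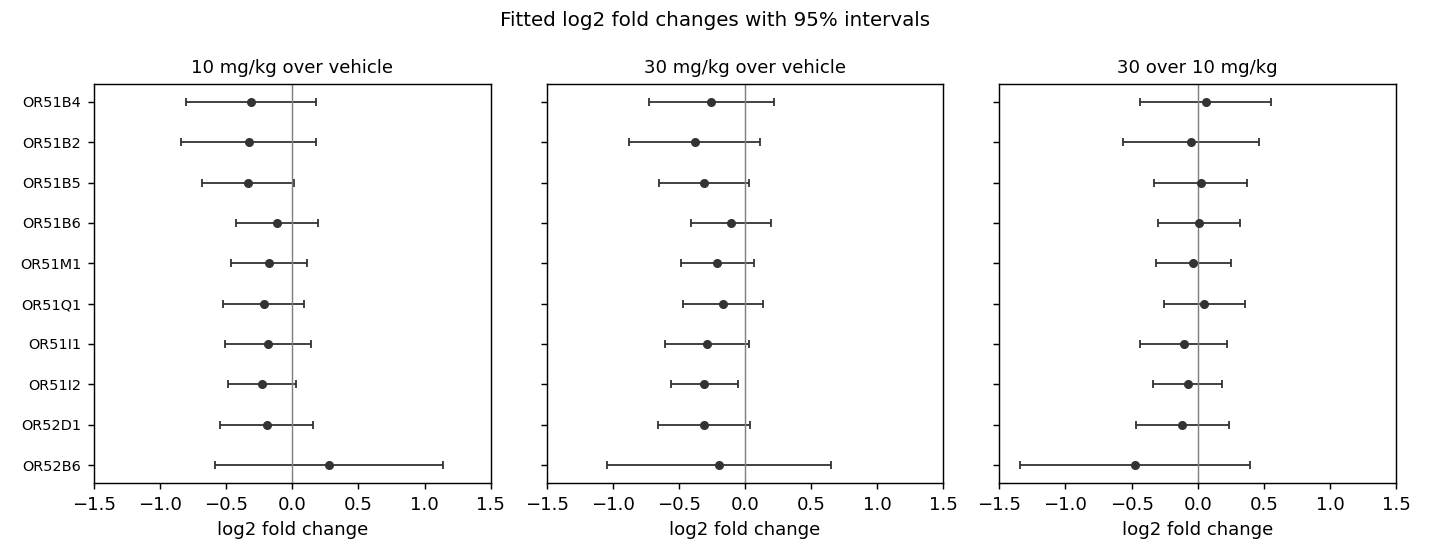
Fitted log2 fold changes (x axis) of the 10 genes present in every tumour (y axis), with 95% intervals, for 10 mg/kg over vehicle, 30 mg/kg over vehicle and 30 over 10 mg/kg. Only the interval of OR51I2 at 30 mg/kg over vehicle, -0.56 to -0.05, leaves out 0, and no gene passes the adjusted threshold.

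Between the doses the run did not differ detectably. At 30 against 10 mg/kg its median log2 fold change was -0.03, with 5 of 9 genes below 0, where 49.1% of all tested genes were, and a range from -0.12 for OR52D1 to 0.06 for OR51B4. Without replicate 2 of 10 mg/kg the median was -0.048 with 8 of 9 below 0, and with replicate 4 of 10 mg/kg and replicate 5 of 30 mg/kg left out as well it was -0.11 with 9 of 9 below 0. The intervals of OR51I2, -0.33 to 0.18, and OR52D1, -0.47 to 0.24, bound the difference in the genes with the highest counts. Groups separated for 0 of the 9, where 0.135% of all tested genes had groups with no overlap.

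The genes outside the run and OR52B6 were low. At the limit of the class present in every tumour, OR52B6 had a minimum of 4 counts and OR51B4 one of 23 counts over the 17 libraries. Just outside it, OR52H1, the next receptor gene after OR52D1, reached 3 counts in 12 of 17 libraries, and OR52W1 in 8 of 17. The highest mean levels among the 28 genes between the classes were 1.97 TPM for OR52H1, 1.21 TPM for OR52W1, 1.11 TPM for OR51T1, 0.83 TPM for OR52B4, 0.76 TPM for OR52E4 and 0.70 TPM for OR51F2. The last 4 of these means rested on few libraries, as means chosen after seeing the data show. Without replicate 4 of 10 mg/kg, OR51T1 averaged 0.54 TPM and OR51F2 0.27 TPM, and without replicate 5 of 30 mg/kg OR52B4 averaged 0.53 TPM. With both left out, OR52E4 averaged 0.38 TPM, and OR52H1 (1.80 TPM), OR52W1 (1.09 TPM) and OR52I1 (0.66 TPM) were the highest of the 28. Of the 28, 23 had a median of 0 TPM, and 26 reached 3 counts in 4 libraries or fewer. OR51V1, the first receptor beyond the globins, had at most 4 counts in the 17 libraries. OR51E1 and OR51E2, receptors known from prostate, belonged here, with at most 6 and 10 counts.

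The other 19 genes of this class were OR52K2, OR52K1, OR52M1, OR52I2, OR52I1, OR51D1, OR51F1, OR52R1, OR51S1, OR51A7, OR51G2, OR51G1, OR52J3, OR52E2, OR52N4, OR52N2, OR52E6, OR52L1 and OR52B2. None of them exceeded 11 counts in the 17 libraries except OR52L1, with 12. The 8 silent genes were OR51A4, OR51A2, OR51L1, OR52A5, OR52A1, OR52N5, OR52N1 and OR52E8. Together they had 16 counts over the 17 libraries and at most 2 in any of them. At these depths such counts set an upper limit and do not show that a gene is off.

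Low counts in these 36 genes were concentrated in few libraries. Of their 578 counts over the 17 libraries, 281 (48.6%) were in replicate 4 of 10 mg/kg and replicate 5 of 30 mg/kg. Replicate 4 had a count in 31 of the 36 genes and 3 or more in 23, and replicate 5 had a count in 25 and 3 or more in 17. In the remaining 15 libraries, 0 to 9 of the 36 genes reached 3 counts. Of the 28 genes between the classes, 10 reached 3 counts only in these 2 libraries. With both left out 18 genes were silent in place of 8, and 10 were present in every tumour as before. Fewer libraries can only add silent or present genes, so neither number could have fallen.

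The same libraries had counts in more genes of the whole table and in more receptors of other families. Replicate 4 of 10 mg/kg had a count in 21578 genes and replicate 5 of 30 mg/kg in 20911, the 2 highest, against a median of 17769 over the 17 libraries, and replicate 2 had one in 19680. Summed over the 36 genes, CPM per kb of gene length was 1.19 in replicate 4 of 10 mg/kg and 0.825 in replicate 5 of 30 mg/kg, against a median of 0.0957 over the 17 libraries. Over the other families it was 1.12 and 0.720. Summed TPM of the run was the lowest of its group in these libraries, at 704 and 824 TPM, replicate 2 aside. In CPM per kb this held for replicate 4 of 10 mg/kg, at 38.1, but not for replicate 5 of 30 mg/kg, at 48.6, since replicate 4 of that group had 45.6. Whether the scattered counts have a part in the run's levels was not tested.

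Replicate 2 of 10 mg/kg stood furthest apart. The 36 genes had 5.03 CPM per kb there and the other families 4.01. It had counts in 25 of the 36 genes, 14 with 3 or more, among them 6 counts for OR51A2 and 5 for OR52E8, which were silent elsewhere. The run had 134 counts in this library, and 8 of its 9 genes reached 3 counts. OR51M1 had 79.3 TPM there, or 21.9% of the run, against 8.30 to 11.5% in the other 17 libraries. The run exceeded the 36 genes per kb by 6.00 times in replicate 2, by 32.1 times in replicate 4 of 10 mg/kg and by 534 times at the median of the 17 libraries.

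**Figure D4:**
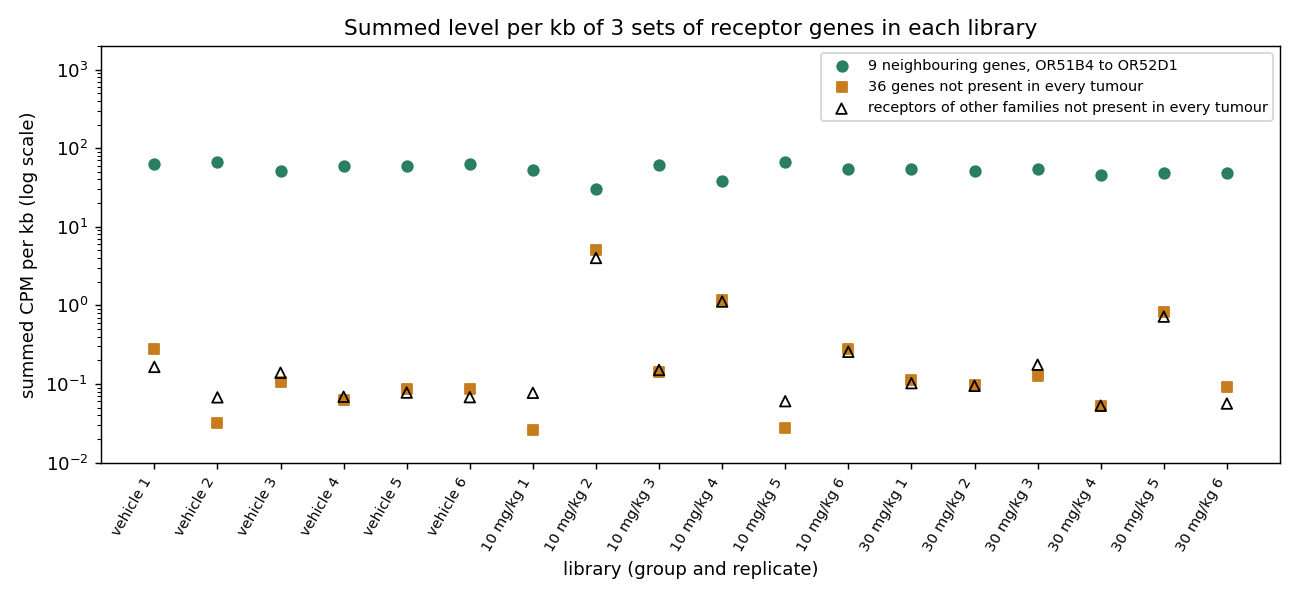
Summed CPM per kb (y axis, log scale) of the 9 genes from OR51B4 to OR52D1, of the 36 genes not present in every tumour and of receptors of other families not present in every tumour, in each of the 18 libraries (x axis, in the order vehicle, 10 and 30 mg/kg). The 36 genes reach 5.03 in replicate 2 of 10 mg/kg, 1.19 in replicate 4 of 10 mg/kg and 0.825 in replicate 5 of 30 mg/kg, and the other families follow them.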

How the data were processed

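RNA-seq was measured in 18 xenograft tumour libraries, 6 per group. Per the labels, 5 ng of total RNA, purified on a Promega Maxwell instrument, entered the stranded SMARTer pico-input library kit. The submitters' processing notes name STAR 2.4.2a, hg19 and mm10, without their roles. The quantification tool, its strand setting, the annotation release and how mouse reads were treated were not given in the sources used here. Per the file headers, the authors deposited expected counts, TPM and transcript accessions per Entrez gene, in 1 table per library.

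Entrez IDs gave a symbol for 25220 genes, transcript accessions for 26 more, and 97 had none. RefSeq lists 48 protein-coding OR51 and OR52 genes, of which OR51C1 and OR52E5 were not analysed here. Expected counts were rounded and fitted in edgeR 4.0.16 (R 4.3.3; TMM, filterByExpr, robust quasi-likelihood over all 18 libraries), with Benjamini-Hochberg adjustment over 14074 genes and a threshold of 0.05; DESeq2 1.42.0 was an alternative. The fit was checked on simulated data with changes larger than those fitted for the receptor genes. The check does not show whether differences of their size would be found. Gene order and start windows came from RefSeq (GRCh38.p14), transcript spans from GENCODE 29 and identities from blastn 2.17.0.

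The genes and lists were chosen with earlier results of these data known. Named were all genes present in every tumour, the 6 highest between the classes, all silent genes, the nearest genes on each side of the count threshold and the 2 highest genes of a list; other names, and the run of 9 genes, were chosen after values were seen. Fibroblast, endothelial and leukocyte markers had 1 of 6, 1 of 5 and 2 of 5 genes present in every tumour and 0 past the threshold in any comparison.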

Additional observations from a re-analysis of the deposited data

Results flagged for a closer look

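Of 45 group and quantity combinations examined for a library far from the others of its group, 6 had such a library. They lie only in vehicle replicate 1, replicate 2 of 10 mg/kg, which was set apart beforehand, and replicate 5 of 30 mg/kg. The quantities overlap, so the 6 cannot be set against the share of about 1 in 20 that chance gives for separate ones. All 6 concern low-level counts of receptor genes and none the level of the 9 neighbouring genes. A second low library can hide such a gap. The summed TPM of the 9 genes at 10 mg/kg was 361 in replicate 2, 704 in replicate 4 and 1292 at most, and was not flagged. In vehicle, replicate 1 had 0.280 CPM per kb over the 36 genes not present in every tumour, with the next library at 0.107, and counts in 20 of these genes, with the next at 8. At 10 mg/kg, replicate 2 had 5.03 CPM per kb over the 36 genes, with the next library at 1.19, and 4.01 over receptors of other families, with the next at 1.12. At 30 mg/kg, replicate 5 had 0.825 CPM per kb over the 36 genes, with the next library at 0.127, and 0.720 over receptors of other families, with the next at 0.176.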

How the results depend on the processing

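Under 7 alternatives, 198 of 210 fold changes of the 10 tested receptor genes kept their direction and side of the threshold, 0 passed it, and the smallest adjusted p with the count filter was 0.0845 (edgeR, OR51I2 at 30 mg/kg against vehicle). Leaving out replicates 2 and 4 of 10 mg/kg and replicate 5 of 30 mg/kg together, chosen after seeing the data, turned OR51B6 (0.028) and OR52D1 (0.042) at 10 mg/kg against vehicle. For 30 against 10 mg/kg this setting gave -0.10 for OR51B5, -0.12 for OR51B6, -0.11 for OR51Q1 and -0.070 for OR51B4; without replicate 2 alone OR51B5 had -0.035, OR51B6 -0.048 and OR51Q1 -0.029, library totals gave -0.0062 for OR51B5 and -0.020 for OR51B6, and no count filter gave 0.0074 for OR51M1. Genes called over the whole table at 10 mg/kg against vehicle, 66, became 32 with no filter, 159 with DESeq2, 121 without replicate 2 and 24 with the replicate block; at 30 mg/kg against vehicle, 87 became 57, 179 and 182 under the first 3 of these and 223 with the 3 libraries left out. Of 18 same-numbered pairs, 3 correlated above 0.1. Differently numbered pairs were not set beside them, so the check cannot decide whether replicate numbers pair the samples. With the block 0 receptor genes passed. The count of silent genes, 8, depended on its definition: 0 at 1 count, 28 at 10 counts, 0 by a TPM above 0 and 18 over 15 libraries, since fewer libraries can only add silent genes. Genes present in every tumour numbered 8 to 10 under these definitions. The cause of the other changes was not tested. Depth limits the low genes, and replicate 2 most of all.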
